A study of Danio rerio with 12 samples.

Results

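The genes described here are 75 of the 25281 zebrafish genes in the deposited table, taken by name as genes of the interferon response and of antigen presentation. They include RNA sensors (ifih1, dhx58 and trim25), the signal transducer stat2, 13 interferon regulatory factors (irf), 17 interferon-induced effectors (isg15, rsad2, mxa to mxg and 8 ifit genes) and 4 guanylate-binding proteins (gbp). On the side of antigen presentation they include 3 peptide transporter genes (tap), 19 genes of MHC class I with its light chain, and 7 genes of MHC class II with its invariant chain. The same name patterns also took in ifitm1, ifitm5 and 4 genes of proteins that bind interferon regulatory factor 2 (irf2bp1, irf2bp2a, irf2bp2b and irf2bpl), which are described apart. The genes were taken by name patterns, which were set with earlier results of these data known. Of the 75, 71 passed a filter on low counts and were tested.

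Cells that sense viral RNA, through receptors such as MDA5 (ifih1) and LGP2 (dhx58), release interferon, which binds receptors on the same and neighbouring cells. There a complex that holds STAT2 and IRF9 switches on a large set of genes, among them isg15, rsad2 and the mx and ifit families, whose products block steps of virus growth. Interferon also raises antigen presentation, in which MHC class I with beta-2-microglobulin shows peptides pumped in by the TAP transporter, while MHC class II, made mostly by professional immune cells, shows peptides from taken-up material with the help of the invariant chain CD74. The MHC class I heavy chain genes described here are of the U, Z and L lineages. In fish, the genes that a chromosome carries at these loci can differ between individuals.

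Muscle of the tail region, behind the anus, was collected from wild type zebrafish, labelled 2 to 3 months old (older by the study's methods) with no strain named, that had gone without food for 24 h (Fast), and from such fish 3 h (Refed_3h) and 8 h (Refed_8h) after they were fed again, 4 fish a group. All groups were fasted first, no fish that had never been fasted was included, and the hours since feeding and the time of day of sampling cannot be told apart. Each group held 2 females and 2 males by the study's methods, and the sex of each fish was not given. The levels below are TPM, reads per gene scaled for transcript length and for the library total, and fold changes come from the counts.

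Counts summed to 11929140 to 18446239 per library, and no pair of libraries looked like repeats of 1 library. Muscle markers such as ckma were the most abundant of the marker lists in every fish, at a summed 91445 to 136086 TPM, and skin markers summed to 14115 to 27413 TPM, so the samples were not pure muscle. In samples of whole tissue, fewer cells of a type and less RNA per cell cannot be told apart. On the TPM scale the median gene was lower in Refed_3h than in Fast by 0.26 on the log2 scale, whereas in the fit to counts the median of all genes was -0.01, 0.00 and 0.01 in the 3 comparisons, so TPM values of Refed_3h are to be read against that shift.

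In Refed_8h against Refed_3h, 3 of the 71 tested genes rose and 2 fell past an adjusted p of 0.05 in edgeR's quasi-likelihood test with Benjamini-Hochberg adjustment over all 16745 tested genes. The genes that rose were stat2, dhx58 and mhc1uka, and those that fell were ifitm1 and irf2bp1. Over all tested genes 3.06% were called higher and 3.36% lower, so the called share was close to that of the whole table. Of the 5, stat2 and dhx58 higher and ifitm1 lower also changed at least 2-fold, as did 1.7% and 1.09% of all tested genes. Most fold changes were above 0: 53 of the 71 were above 0, with a median log2 fold change of 0.48 beside 0.01 for all genes, and 24 of the 71 had an unadjusted p under 0.05, as did 22.4% of all tested genes. In 8 genes every Refed_8h fish lay above every Refed_3h fish on the scale of CPM (counts scaled to the library total times its TMM factor, a scaling between libraries), and in 2 every one lay below, where 7.03% and 7.94% of all tested genes did so. The count of 5 depended on single fish. It was 15 without Refed_8h 3 and 3 without any 1 of Refed_3h 1, 2 and 3 or Refed_8h 1, 2 and 4, and DESeq2 called 17. The calls over all tested genes moved too, from 512 higher and 562 lower to 877 and 899 with DESeq2. They were 519 and 422 without Refed_8h 3. In the left-out fits that gave 3 they were 228 to 394 higher and 231 to 442 lower.

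In Refed_3h against Fast, 1 gene passed the same edgeR test, irf2bp1, which rose, and none fell, where 2.28% of all tested genes were called higher and 2.63% lower. Most genes were below 0 without passing: 49 of the 71 fold changes were below 0, with a median log2 fold change of -0.26 beside -0.01 for all genes, and 12 had an unadjusted p under 0.05, a smaller share than the 22.9% of all tested genes. In 2 genes every Refed_3h fish lay above every Fast fish and in 4 (stat2, dhx58, tap1 and ifit12) every one lay below, where 6.99% and 7.02% of all tested genes did so. DESeq2 called 4 genes, 3 of them lower. Over all tested genes it called 799 higher and 898 lower, where edgeR called 381 and 440. Without Refed_3h 1 no gene passed, without Fast 1 the only call was another gene that was lower (gbp3), and without Refed_8h 2 or Refed_8h 3 there were 2 calls. Over all tested genes 117 were called higher and 148 lower without Refed_3h 1, and 102 and 162 without Fast 1. Without Refed_8h 2 they were 378 and 422, and without Refed_8h 3 366 and 423.

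In Refed_8h against Fast, ifitm1 fell and no gene rose past the test, where 0.543% of all tested genes were called higher and 0.854% lower, and 0.609% were called lower by at least 2-fold, as ifitm1 was. The median log2 fold change was 0.34 beside 0.00 for all genes, with 55 of the 71 above 0, and 7 had an unadjusted p under 0.05, a smaller share than the 13% of all tested genes. In 3 genes every Refed_8h fish lay above every Fast fish (irf4b, irf2bp2b and mhc1laa) and in 1 every one lay below, where 3.61% and 3.83% of all tested genes did so. The count of calls was 1 under every alternative that was run. The 3 comparisons share groups, since the Fast fish serve 2 of them and each refed group serves 2, so their fold changes are not independent of each other.

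**Figure D1:**
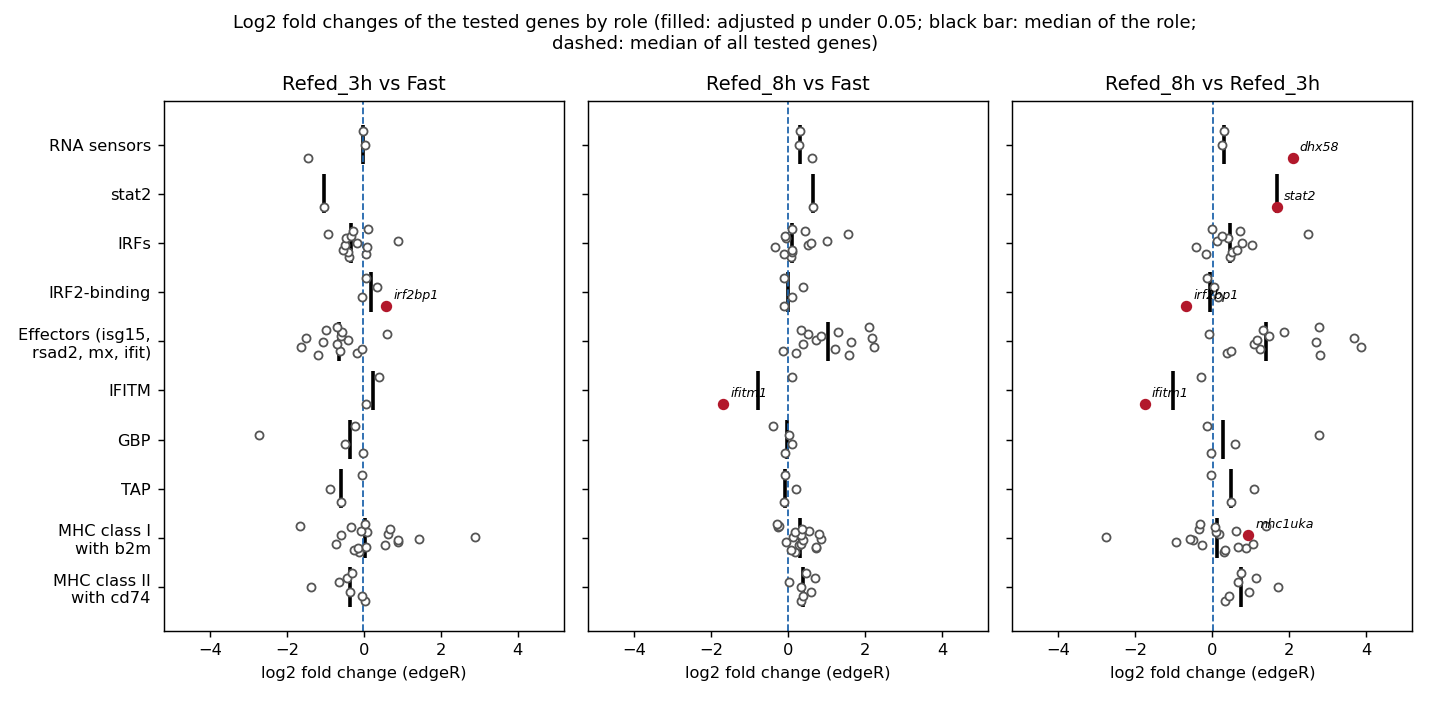
Log2 fold change of 69 tested genes (x axis) by role (y axis) in the 3 comparisons; a filled red point passed an adjusted p of 0.05 in edgeR, black bars are medians of a role and the dashed line is the median of all tested genes. The effectors lie mostly below 0 in Refed_3h against Fast (median -0.65) and above 0 in Refed_8h against Refed_3h (median 1.39), with none past the test.

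Of the 3 sensors, only dhx58 passed the edgeR test. dhx58 (chr3:17689419-17710221 on GRCz11), which encodes LGP2, a helicase that tunes the signal of MDA5, had 11.5, 9.96, 6.76 and 15.1 TPM in Fast fish, 3.13, 1.22, 3.94 and 3.90 TPM in Refed_3h, and 15.8, 25.6, 5.09 and 15.4 TPM in Refed_8h. All Refed_3h fish lay below all others, and Refed_8h 3 lay nearest to them. The log2 fold change was 2.09 (SE 0.50) in Refed_8h against Refed_3h, with an adjusted p of 0.031 in edgeR. In Refed_3h against Fast it was -1.46 (SE 0.50), with an adjusted p of 0.11 that did not pass. The call at 8 h was lost without any 1 of Refed_3h 1, 2 and 3 and Refed_8h 1, 2 and 4, where the edgeR adjusted p was 0.064 to 0.081. It was also lost in a fit of only the groups compared (0.0602) and without the filter on low counts (0.0578), and it passed in 11 of the 20 alternatives.

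The other sensors varied little. trim25, a ubiquitin ligase that acts on RNA sensing in mammals, had 28.3, 17.1, 16.5 and 19.2 TPM in Fast fish, 17.1, 16.4, 16.9 and 12.1 TPM in Refed_3h, and 29.7, 24.0, 14.4 and 24.5 TPM in Refed_8h. ifih1, which encodes MDA5, ranged over the 12 fish between 2.85 and 5.90 TPM. Neither passed in any comparison, and their groups overlapped throughout.

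The signal transducer stat2 was called. stat2 (chr6:39123544-39160422), which carries the signal of type I interferon to the nucleus, had 38.6, 19.9, 18.2 and 25.2 TPM in Fast fish, 8.66, 10.9, 9.15 and 9.29 TPM in Refed_3h, and 47.4, 49.5, 14.9 and 33.1 TPM in Refed_8h. The Refed_3h fish were close to each other and all below the other 8 fish. stat2 rose by 1.68 on the log2 scale (SE 0.31) in Refed_8h against Refed_3h, with an adjusted p of 0.0081 in edgeR, and passed in all 20 alternatives of tool, scaling, filter and left-out fish. In Refed_3h against Fast its log2 fold change was -1.04 (SE 0.31), with an adjusted p of 0.0663 in edgeR, and it passed in 7 of the 20 alternatives.

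**Figure D2:**
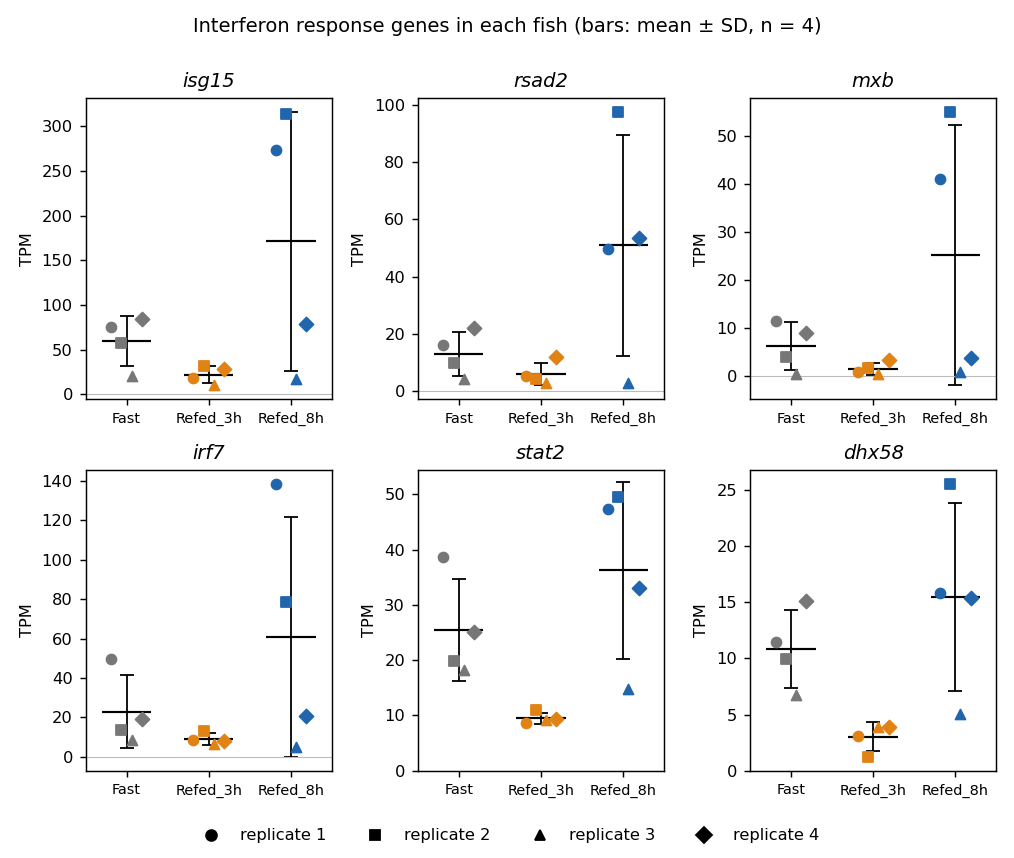
TPM of 6 interferon response genes (y axes from 0 or just below, linear) in each fish of Fast, Refed_3h and Refed_8h; marker shape gives the replicate number and bars are mean ± SD, n = 4. The Refed_3h fish sit together at low values in every panel, and the Refed_8h fish spread widely, with replicate 3 at the bottom (17.6 TPM of isg15, against 314 TPM in replicate 2).

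The effectors leaned the same way as the whole set, with a wide spread between fish. Of the 14 tested, 13 were above 0 in Refed_8h against Refed_3h with a median log2 fold change of 1.39. An unadjusted p under 0.05 was found in 8 of the 14, beside 22.4% of all tested genes. None passed the edgeR adjustment, while DESeq2 or a fit without Refed_8h 3 did call some of them. In Refed_3h against Fast 13 of the 14 were below 0, with a median of -0.65, and in Refed_8h against Fast 13 were above 0, with a median of 1.04. Each of these medians kept its sign under every alternative run. The remaining effectors, ifit14, ifit15 and mxg, were not tested and reached at most 0.905, 1.12 and 0.191 TPM.

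isg15 (chr5:20112032-20113284), a ubiquitin-like protein that is attached to other proteins, had 75.5, 57.5, 20.4 and 84.3 TPM in Fast fish, 18.5, 31.0, 9.85 and 28.6 TPM in Refed_3h, and 274, 314, 17.6 and 78.8 TPM in Refed_8h. rsad2, which encodes viperin, an enzyme that makes a chain-ending nucleotide, had 16.0, 9.74, 4.23 and 22.1 TPM in Fast fish, 5.17, 4.27, 2.76 and 11.8 TPM in Refed_3h, and 49.7, 97.5, 2.99 and 53.4 TPM in Refed_8h. In both genes Refed_8h 1 and 2 were far above the Fast fish, and in rsad2 so was Refed_8h 4, which in isg15 lay within the Fast range. Refed_8h 3 was inside the range of Refed_3h in both, so the groups overlapped. The log2 fold change in Refed_8h against Refed_3h was 2.70 (SE 0.81) for isg15, with an edgeR adjusted p of 0.0788 with all fish and 0.023 without Refed_8h 3. For rsad2 it was 2.78 (SE 0.91), with 0.103 with all fish and 0.0263 without Refed_8h 3. Refed_8h 3 was the lowest fish of its group in both, so leaving it out raises the mean of Refed_8h. Of the 20 alternatives, isg15 passed in 3 and rsad2 in 2. Their highest adjusted p over these fits of edgeR, DESeq2 or limma was 0.171 and 0.211.

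The mx genes encode GTPases that trap viral nucleoproteins. mxb had 11.5, 3.98, 0.499 and 9.02 TPM in Fast fish, 0.784, 1.73, 0.534 and 3.29 TPM in Refed_3h, and 41.0, 54.9, 0.767 and 3.74 TPM in Refed_8h. mxc had 22.5, 19.4, 19.3 and 26.7 TPM in Fast fish, 12.6, 19.6, 9.72 and 5.22 TPM in Refed_3h, and 89.0, 19.6, 15.2 and 35.2 TPM in Refed_8h. The highest fish therefore differed between these copies, Refed_8h 2 for mxb and Refed_8h 1 for mxc. Their log2 fold changes in Refed_8h against Refed_3h were 3.69 (SE 1.3) for mxb and 1.47 (SE 0.45) for mxc, with edgeR adjusted p-values of 0.127 and 0.0793. Without Refed_8h 3 the edgeR adjusted p of mxc was 0.0402, a pass. Of the 20 alternatives, mxc passed in 2 and mxb in 1, and their highest adjusted p over fits of edgeR, DESeq2 or limma was 0.191 and 0.263. Of the other mx genes, mxa, mxe and mxf had log2 fold changes of 1.16, 1.88 and 1.32 in that comparison without passing, and mxd stood apart with levels of 1.87 to 5.62 TPM over all fish and little difference between the refed groups. Its log2 fold change in Refed_3h against Fast was 0.60 (SE 0.27, edgeR adjusted p 0.208), the one effector above 0 there. These copies resemble each other in sequence, and how reads with several matches were counted was not given, so the share of each copy is uncertain.

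The ifit genes encode proteins that bind foreign RNA ends. ifit8 had 3.17, 1.09, 0.263 and 1.92 TPM in Fast fish, 0.194, 0.173, 0.204 and 0.896 TPM in Refed_3h, and 10.0, 13.0, 0.151 and 3.98 TPM in Refed_8h. It had the largest positive log2 fold change of all the genes in Refed_8h against Refed_3h, 3.86 (SE 1.1, edgeR adjusted p 0.0608), and the lowest of all 12 fish was Refed_8h 3. Without that fish its edgeR adjusted p was 0.0134, and that of ifit10, at 2.80 (SE 0.82) with all fish, was 0.0121 against 0.0674. ifit8 and ifit10 each passed in 2 of the 20 alternatives, with a highest adjusted p over fits of edgeR, DESeq2 or limma of 0.147 and 0.189. At the other end, ifit11 stayed within 2.56 and 9.95 TPM. ifit12 was below all Fast fish in every Refed_3h fish on the CPM scale, with a log2 fold change of -0.61 (SE 0.24, edgeR adjusted p 0.153).

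The spread between fish was itself a feature of these genes. Over the 12 fish the difference between the highest and the lowest fish in log2 CPM had a median of 2.16 over the 71 tested genes, beside 1.32 over all tested genes. It exceeded 4 in 21 of them, or 29.6%, beside 511 of all 16745, or 3.05%. Among these 21, MHC and TAP genes outnumbered the effectors, and several of them were at or near 0 counts in some fish. The widest ranges were those of mhc2b (11.0) and tap2a (8.42), both nearly absent in some fish, followed by mhc1uba (6.84) and the effector mxb (6.81). For the 14 tested effectors the highest fish was Refed_8h 2 in 7 genes and Refed_8h 1 in 5, and for all 71 these fish were the highest in 17 and 16. The lowest fish of the 71 was Refed_8h 3 in 14 genes, Refed_3h 3 in 14, Fast 3 in 12 and Refed_3h 4 in 10.

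Of the 13 interferon regulatory factors none passed in any comparison by edgeR, with 2, 1 and 4 at an unadjusted p under 0.05 in Refed_3h against Fast, Refed_8h against Fast and Refed_8h against Refed_3h, where 22.9%, 13% and 22.4% of all tested genes were. irf7, the factor that amplifies interferon production, followed the effectors, with 49.7, 13.3, 8.66 and 19.3 TPM in Fast fish, 8.40, 12.9, 6.17 and 8.07 TPM in Refed_3h, and 139, 78.5, 4.90 and 20.6 TPM in Refed_8h. Its lowest and its highest level were both in Refed_8h, in replicates 3 and 1. The log2 fold change of irf7 in Refed_8h against Refed_3h was 2.49 (SE 0.85). The edgeR adjusted p was 0.113 with all fish and 0.0328 without Refed_8h 3, and irf7 passed in 2 of the 20 alternatives. Its highest adjusted p over these fits of edgeR, DESeq2 or limma was 0.2685.

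irf1b, a copy of the factor that interferon gamma induces, was the most abundant of the family, with 73.4, 78.9, 42.5 and 100.5 TPM in Fast fish, 54.3, 52.1, 43.3 and 29.5 TPM in Refed_3h, and 122, 55.9, 47.4 and 81.9 TPM in Refed_8h. Its groups overlapped and its adjusted p in edgeR was at least 0.311 in the 3 comparisons. irf3, which acts directly downstream of the RNA sensors, had 3.34, 3.26, 1.82 and 2.59 TPM in Refed_8h against 1.08, 1.68, 1.14 and 0.736 TPM in Refed_3h, groups that did not overlap. Its log2 fold change was 1.02 (SE 0.32), with an edgeR adjusted p of 0.0802. irf9, the DNA-binding partner of stat2, stayed within 19.4 and 32.6 TPM in all fish, with overlapping groups. The factors of blood cells included irf8, needed for macrophages, which had 10.7 to 24.7 TPM in Refed_8h and 6.16 to 10.4 TPM in Refed_3h. These groups of irf8 were apart in TPM but overlapped in CPM. Its log2 fold change in Refed_8h against Refed_3h was 0.71 (SE 0.25, edgeR adjusted p 0.103).

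Further factors with an unadjusted p under 0.05 were irf2 and irf4b. irf2, which in mammals opposes IRF1 at shared sites, had 39.2, 28.8, 18.8 and 26.2 TPM in Refed_8h against 15.4, 20.8, 13.0 and 11.5 TPM in Refed_3h, and Refed_8h 3 lay below the highest Refed_3h fish. For irf2 the log2 fold change was 0.65 (SE 0.21, edgeR adjusted p 0.0805). irf4b, a copy of a factor of lymphocytes, had 1.05, 0.542, 0.636 and 1.12 TPM in Refed_8h against 0.701, 0.311, 0.331 and 0.423 TPM in Fast fish. These levels rested on 4 to 21 counts a fish, and the groups overlapped in TPM but not in CPM. The log2 fold change of irf4b in Refed_8h against Fast was 1.01 (SE 0.39, edgeR adjusted p 0.275).

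The guanylate-binding proteins are interferon-induced GTPases that act on vacuoles around intracellular pathogens. gbp3 had 0.218, 0.870, 1.59 and 4.23 TPM in Fast fish, 0.190, 0.254, 0.200 and 0.186 TPM in Refed_3h, and 1.86, 2.16, 0.461 and 2.38 TPM in Refed_8h. All Refed_8h fish lay above all Refed_3h fish, and the Refed_3h levels rested on at most 9 counts a fish. The log2 fold change of gbp3 was 2.77 (SE 0.78) in Refed_8h against Refed_3h and -2.73 (SE 0.78) in Refed_3h against Fast, with edgeR adjusted p-values of 0.0535 and 0.0612. The first passed in 5 of the 20 alternatives, among them edgeR without Refed_8h 3 (0.036), Fast 1 (0.0172) or Fast 4 (0.0243). The second passed in 2 of 19, among them edgeR without Fast 1 (0.0248). The highest adjusted p of each over fits of edgeR, DESeq2 or limma was 0.159 and 0.164.

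The other guanylate-binding proteins changed less. gbp1 had 16.5, 23.4, 15.0 and 24.4 TPM in Fast fish, 16.3, 17.9, 20.2 and 8.81 TPM in Refed_3h, and 18.9, 16.1, 13.3 and 23.6 TPM in Refed_8h. gbp2 had 4.98, 6.52, 6.63 and 10.5 TPM in Fast fish, 3.61, 4.53, 5.66 and 2.85 TPM in Refed_3h, and 7.61, 6.15, 6.75 and 8.92 TPM in Refed_8h. gbp2 was higher in every Refed_8h fish than in every Refed_3h fish, by 0.59 on the log2 scale (SE 0.24), but did not pass in edgeR (adjusted p 0.17), and gbp1 showed no separation of groups. gbp4 had 2.71, 1.64, 0.547 and 1.56 TPM in Fast fish, 0.910, 2.13, 0.603 and 0.679 TPM in Refed_3h, and 1.74, 0.598, 0.841 and 1.53 TPM in Refed_8h, ranges that overlapped almost wholly. Its log2 fold change in Refed_8h against Fast was -0.38 (SE 0.45, edgeR adjusted p 0.789).

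ifitm1 fell at 8 h, against the direction of most of these genes. It belongs to a family of small membrane proteins that in mammals hinder the entry of viruses, and it lies at chr5:33258289-33259079. It had 29.0, 36.3, 29.8 and 35.8 TPM in Fast fish, 33.2, 23.1, 28.8 and 23.9 TPM in Refed_3h, and 11.7, 7.59, 8.00 and 11.5 TPM in Refed_8h. The 4 Refed_8h fish were all below the 8 other fish, and, unlike in isg15, rsad2, mxb and ifit8, Refed_8h 3 lay with the other fish of its group. ifitm1 fell by 1.76 on the log2 scale (SE 0.194) in Refed_8h against Refed_3h and by 1.69 (SE 0.193) in Refed_8h against Fast. The edgeR adjusted p-values were 3.05e-04 and 3.95e-04, and both calls held in all 20 alternatives. The other member of this family, ifitm5, which in mammals is made by bone-forming cells, had 21.6, 30.7, 5.33 and 16.0 TPM in Fast fish, 17.9, 29.1, 14.2 and 16.4 TPM in Refed_3h, and 20.7, 39.7, 7.09 and 4.75 TPM in Refed_8h. Its groups overlapped and it did not pass. The annotation of ifitm5 overlaps cat on the same strand, so its counts may hold reads of that gene.

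Among the proteins that bind interferon regulatory factor 2, irf2bp1, a co-repressor in mammals, was the only gene called in the comparison of Refed_3h with Fast. irf2bp1 had 20.2, 16.2, 18.0 and 17.5 TPM in Fast fish, 23.2, 23.5, 21.8 and 16.3 TPM in Refed_3h, and 18.2, 15.7, 12.7 and 16.0 TPM in Refed_8h. In TPM Refed_3h 4 lay among the fish of the other groups, whereas in CPM scaled between libraries all Refed_3h fish were above all others. irf2bp1 rose by 0.58 on the log2 scale (SE 0.116) in Refed_3h against Fast, with an edgeR adjusted p of 0.0156, and fell by 0.68 (SE 0.116) in Refed_8h against Refed_3h, with 0.00493. On the scale of log2(TPM + 1) neither passed: the differences were 0.22 and -0.41, with limma adjusted p-values of 0.357 and 0.141. The call at 3 h was also lost without Fast 1 (edgeR adjusted p 0.0527) or Refed_3h 1 (0.0583).

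The related genes varied little between fish. irf2bp2a had 29.1, 17.6, 23.1 and 28.3 TPM in Fast fish, 14.3, 23.2, 21.8 and 15.5 TPM in Refed_3h, and 26.5, 21.5, 24.6 and 24.7 TPM in Refed_8h, with overlapping groups. irf2bp2b had 31.4, 30.4, 28.8 and 35.5 TPM in Fast fish, 29.2, 34.7, 29.7 and 31.9 TPM in Refed_3h, and 40.2, 39.4, 34.0 and 39.7 TPM in Refed_8h. On the CPM scale every Refed_8h fish was above every Fast fish, by a log2 fold change of 0.38 (SE 0.14), which did not pass in edgeR (adjusted p 0.25).

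The transcripts of the MHC class I light chains were abundant. b2m, which encodes beta-2-microglobulin, had 1184, 1126, 794 and 1339 TPM in Fast fish, 938, 935, 677 and 669 TPM in Refed_3h, and 1528, 994, 861 and 1406 TPM in Refed_8h. b2ml, a related copy, had 669, 472, 636 and 553 TPM in Fast fish, 459.9, 374, 350.5 and 338 TPM in Refed_3h, and 693, 443, 442 and 736 TPM in Refed_8h. Both had their lowest levels in Refed_3h fish, on a scale on which the median gene was also lower there, and neither passed in the fit to counts, where the smallest edgeR adjusted p was 0.373 against Fast and 0.246 between the refed groups. The annotation of b2m overlaps irak3 on the same strand, at 2.57 TPM on average.

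Of the class I heavy chains mhc1uka, of the U lineage that holds the classical genes, was called. mhc1uka (chr19:7043634-7051481) had 74.6, 76.7, 56.1 and 139 TPM in Fast fish, 47.7, 59.8, 41.2 and 35.1 TPM in Refed_3h, and 89.0, 106, 95.8 and 118 TPM in Refed_8h. All Refed_8h fish lay above all Refed_3h fish, while Fast overlapped both. mhc1uka rose by 0.93 on the log2 scale (SE 0.26) in Refed_8h against Refed_3h, with an edgeR adjusted p of 0.0487, just under the threshold. The call was lost without any 1 fish other than Fast 3 and Fast 4, where the edgeR adjusted p was 0.0501 to 0.119, and also with RLE size factors (0.0507) and without the filter on low counts (0.0581). In Refed_3h against Fast mhc1uka had a log2 fold change of -0.60 (SE 0.26, edgeR adjusted p 0.188).

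Of the other class I genes, several differed widely between fish of 1 group. mhc1uba had 56.5, 23.1, 49.5 and 7.89 TPM in Fast fish, 41.4, 21.6, 708 and 29.7 TPM in Refed_3h, and 72.1, 24.9, 6.33 and 37.6 TPM in Refed_8h. Its log2 fold changes of 2.88 (SE 1.2) in Refed_3h against Fast and -2.76 (SE 1.2) in Refed_8h against Refed_3h, neither past the edgeR threshold (adjusted p 0.19 and 0.209), thus came with 1 fish, Refed_3h 3, at 12379 of its counts beside 112 to 1312 in the others. mhc1zfa, of the Z lineage, had 4.48, 21.3, 13.5 and 12.2 TPM in Fast fish, 1.45, 0.871, 10.4 and 1.31 TPM in Refed_3h, and 20.8, 8.49, 1.28 and 13.8 TPM in Refed_8h. The low fish of mhc1zfa were 3 of Refed_3h with Refed_8h 3, and its log2 fold change of -1.65 (SE 0.92) in Refed_3h against Fast did not pass in edgeR (adjusted p 0.317). The most abundant heavy chain was mhc1zba, at 29.0 to 379 TPM in Refed_3h and 212 to 501 TPM in the other fish. mhc1laa, of the L lineage, had 2.18, 1.29, 1.40 and 1.14 TPM in Fast fish, 0.923, 0.874, 1.34 and 1.02 TPM in Refed_3h, and 2.04, 1.71, 2.64 and 2.71 TPM in Refed_8h. In CPM its Refed_8h fish were above all others, whereas in TPM Fast 1 lay among them. For mhc1laa the log2 fold change was 0.88 (SE 0.27) in Refed_8h against Refed_3h and 0.72 (SE 0.27) in Refed_8h against Fast, with edgeR adjusted p-values of 0.0731 and 0.252. Over the 18 tested class I genes the median log2 fold change was 0.04 in Refed_3h against Fast, 0.31 in Refed_8h against Fast and 0.14 in Refed_8h against Refed_3h. The first of these took either sign between alternatives.

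The invariant chain genes and the class II genes mhc2a and mhc2dab were among the most abundant of all these transcripts. The other class II genes were lower, with means over all fish of 3.86 to 30.6 TPM. cd74a had 1792, 1902, 1719 and 2065 TPM in Fast fish, 1672, 1816, 1248 and 1275 TPM in Refed_3h, and 2851, 1898, 1569 and 2695 TPM in Refed_8h. cd74b had 1115, 1131, 949 and 1219 TPM in Fast fish, 987, 954, 791 and 678 TPM in Refed_3h, and 1823, 1143, 1039.8 and 1504 TPM in Refed_8h. In both copies Refed_8h 1 and 4 were the highest fish, which were not the pair highest in isg15. The log2 fold change of cd74b was 0.43 (SE 0.16) in Refed_8h against Refed_3h and 0.39 (SE 0.16) in Refed_8h against Fast, with edgeR adjusted p-values of 0.138 and 0.316.

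All 7 class II genes were above 0 in Refed_8h against Refed_3h, with a median log2 fold change of 0.75, and in Refed_8h against Fast, with a median of 0.39. In Refed_3h against Fast 6 of 7 were below 0, with a median of -0.37. None passed in edgeR. An unadjusted p under 0.05 was found in 0, 1 and 1 of them in Refed_3h against Fast, Refed_8h against Fast and Refed_8h against Refed_3h. In the same comparisons 22.9%, 13% and 22.4% of all tested genes had one. mhc2dab, a beta chain, had 109, 974, 50.5 and 669 TPM in Fast fish, 478, 514, 112 and 49.9 TPM in Refed_3h, and 805, 424, 369 and 1423 TPM in Refed_8h. It therefore varied more than 10 times within Fast and within Refed_3h, which leaves its log2 fold change of 1.15 (SE 0.98) in Refed_8h against Refed_3h within the spread of the fish (edgeR adjusted p 0.546). mhc2a ran between 118 and 1100.4 TPM over all fish.

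**Figure D3:**
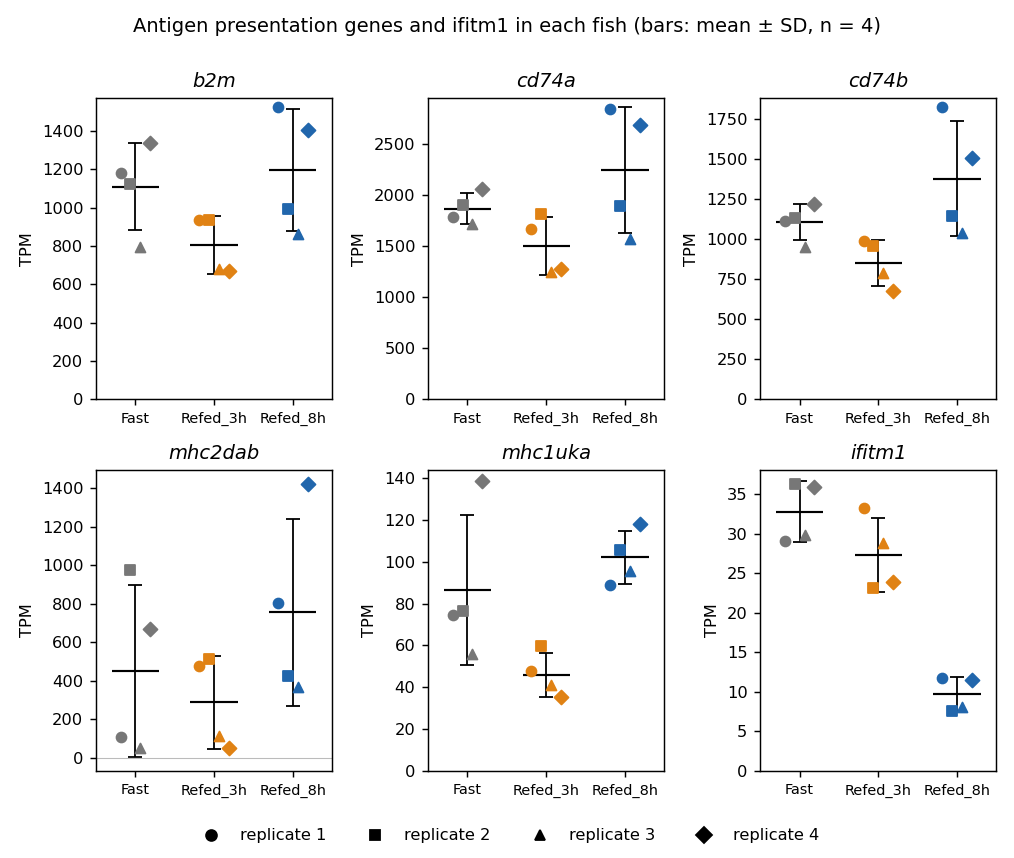
TPM of 5 antigen presentation genes and of ifitm1 (y axes linear) in each fish of Fast, Refed_3h and Refed_8h; marker shape gives the replicate number and bars are mean ± SD, n = 4. The 4 Refed_8h fish lie at 7.59 to 11.7 TPM of ifitm1, below all others, and at 89.0 to 118 TPM of mhc1uka, above all Refed_3h fish, while mhc2dab spreads within each group.

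Of the peptide transporter genes, tap1 was lower in every Refed_3h fish than in every Fast fish, at 3.19, 4.12, 4.32 and 2.84 TPM in Refed_3h against 9.04, 5.34, 6.52 and 7.20 TPM in Fast. Its log2 fold change was -0.60 (SE 0.24), which did not pass in edgeR (adjusted p 0.159). tap2t, another TAP2 gene, had 10.7, 9.59, 8.27 and 11.8 TPM in Fast fish, 6.52, 8.77, 7.82 and 7.61 TPM in Refed_3h, and 10.5, 7.29, 6.51 and 11.8 TPM in Refed_8h, with overlapping groups.

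tap2a was present or nearly absent according to the fish. It had 0.186, 11.4, 0.0439 and 38.4 TPM in Fast fish, 0.130, 8.90, 15.0 and 0.109 TPM in Refed_3h, and 0.197, 11.0, 22.4 and 21.8 TPM in Refed_8h. In counts, 5 fish (Fast 1 and 3, Refed_3h 1 and 4, and Refed_8h 1) had 1 to 6 and the other 7 had 307 to 1195. Each feeding group held fish of both kinds, and its log2 fold change of 1.09 in Refed_8h against Refed_3h had an SE of 1.7 (edgeR adjusted p 0.77). This pattern, and those of the genes in the next paragraphs, were singled out after their values were seen.

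The neighbours of tap2a on chromosome 19 showed how far the pattern reached. tap2a lies at chr19:7124337-7132315, beside psmb9a and psmb12 and within the annotated spans of psmb8a and psmb13a. These psmb genes encode subunits of the proteasome that cuts peptides for class I. They were at 0 to 10 counts in the same 5 fish and at 273 to 1239 counts in the other 7. The tapasin genes tapbp.1 and tapbp.2 and the class I gene mhc1uka of the same region were detected in every fish, with at least 129 counts for the tapasins. The annotation of tap2a overlaps psmb8a and psmb13a on the opposite strand. Whether the counting used strand was not given, so reads of these genes cannot be told apart with certainty. psmb9a and psmb12 do not overlap tap2a and had the same fish low. They lie within the annotations of psmb8a and psmb13a on the opposite strand, so the same uncertainty holds for them.

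On chromosome 25, 4 class I genes of the L lineage shared another set of fish. mhc1lfa (chr25:10947743-10951126) had 0, 0, 5.14 and 0.0447 TPM in Fast fish, 0, 3.19, 3.00 and 0 TPM in Refed_3h, and 0.0458, 2.45, 2.68 and 0.0789 TPM in Refed_8h. mhc1lla (chr25:10972288-10984041) had 0, 0, 4.47 and 0 TPM in Fast fish, 0, 3.44, 6.08 and 0 TPM in Refed_3h, and 0, 4.34, 2.00 and 0.160 TPM in Refed_8h. Both were found in Fast 3, Refed_3h 2 and 3, and Refed_8h 2 and 3, and so were mhc1lja and mhc1lda. In those 5 fish the 4 genes had 19 to 84 counts, and in the other 7 they had 0 to 2. The nearby L lineage genes mhc1lga and mhc1lia did not follow them and had at least 3 and 8 counts in every fish. Each group again held fish of both kinds, and the log2 fold change of mhc1lla in Refed_3h against Fast, 1.43, had an SE of 1.8.

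mhc2b on chromosome 8, a class II gene at chr8:36268747-36292840, split the fish in a further way. It had 87.2, 0.0254, 64.9 and 1.51 TPM in Fast fish, 0, 0.134, 0 and 36.6 TPM in Refed_3h, and 122, 0.0987, 54.2 and 0.305 TPM in Refed_8h. In counts, 5 fish (Fast 1 and 3, Refed_3h 4, and Refed_8h 1 and 3) had 1740 to 4838, Fast 4 had 61, and the other 6 had 0 to 14. The fish low in mhc2b were Fast 2 and 4, Refed_3h 1, 2 and 3, and Refed_8h 2 and 4. Of these only Refed_3h 1 was also low in tap2a, whereas of the 5 fish high in mhc2b all but Refed_8h 3 were low in tap2a. A gene annotated on the opposite strand within mhc2b had 1344 to 3030 counts in the same 5 fish and 0 to 39 in the others. The class I gene mhc1uma on chromosome 22 gave a last such case, with 0 counts in Fast 2, Fast 4 and Refed_3h 1 and 14 to 36 in the others. The classes of similar class I and class II copies may share reads, so levels of single copies are uncertain.

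**Figure D4:**
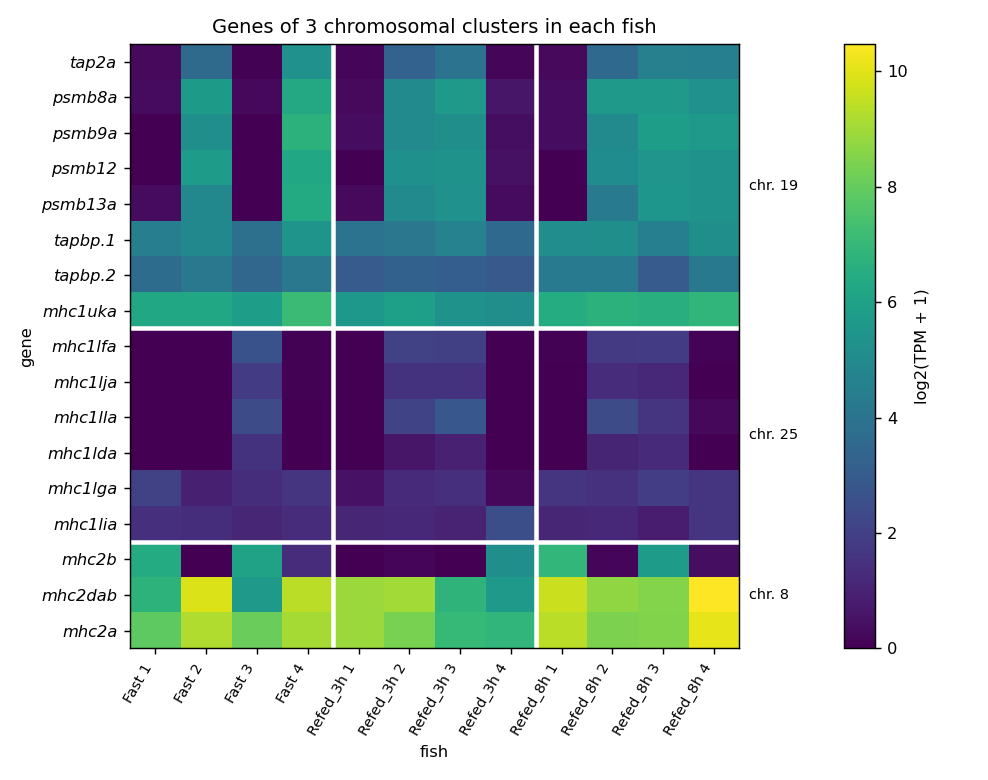
Log2(TPM + 1) (colour) of genes on chromosomes 19, 25 and 8 (y axis) in each of the 12 fish (x axis, by group; white lines separate groups and chromosomes). tap2a and the 4 psmb genes are dark in the same 5 fish, and the 4 L lineage genes are detected in another 5. mhc2b is bright in 5 fish, of which all but Refed_8h 3 are among those dark in tap2a. mhc1uka and the tapasin genes are detected throughout.

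Genes of the same pathways outside the 75, taken from lists, were also mostly above 0 in Refed_8h against Refed_3h. Of 106 such genes found, 95 were tested, and by edgeR 12 passed higher and 1 lower in Refed_8h against Refed_3h, where 3.06% and 3.36% of all tested genes did. Calls numbered 1 higher and 6 lower in Refed_3h against Fast, where 2.28% and 2.63% of all did, and in Refed_8h against Fast 0 higher and 1 lower, where 0.543% and 0.854% did. Their median log2 fold changes were 0.46, -0.25 and 0.16 in those comparisons, beside 0.01, -0.01 and 0.00 for all genes. Sensors of nucleic acids were among those called. tlr3, the endosomal receptor of double-stranded RNA, rose by 1.05 on the log2 scale in Refed_8h against Refed_3h and fell by 0.90 in Refed_3h against Fast, and tlr22, a receptor of double-stranded RNA known from fish, rose by 1.32 and fell by 1.54. tlr3 had 3.88, 3.72, 4.81 and 4.29 TPM in Refed_8h against 1.48, 1.78, 1.97 and 1.60 TPM in Refed_3h. Refed_8h 3 was thus the highest of its group here. tlr22 was low, at 1.23, 0.598, 0.981 and 0.705 TPM in Refed_8h against 0.303, 0.391, 0.284 and 0.198 TPM in Refed_3h.

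The master switches of both presentation pathways were among the genes called. nlrc5, the activator of class I genes, fell by 0.73 on the log2 scale in Refed_3h against Fast and rose by 0.69 in Refed_8h against Refed_3h, with edgeR adjusted p-values of 0.024 and 0.0236. ciita, the activator of class II genes, fell by 0.74 and rose by 0.68 in the same comparisons, with edgeR adjusted p-values of 0.0238 and 0.0273. ciita had 6.61, 6.91, 8.34 and 4.96 TPM in Refed_3h against 15.6, 11.0, 12.9 and 17.1 TPM in Fast fish, so that no Refed_3h fish reached the Fast range. In Refed_8h against Refed_3h, helz2, an interferon-induced helicase, rose by 1.96 and socs1a, a feedback inhibitor of JAK kinases, by 1.12. mavs, the adaptor through which MDA5 signals, went the other way and fell by 0.72 in Refed_8h against Refed_3h and by 0.80 in Refed_8h against Fast. The interferons themselves were low. Of 6 ligand genes found, 2 were tested and neither passed: ifng1r, related to interferon gamma, lay between 0.996 and 4.73 TPM over the 12 fish, and ifnphi1, the highest type I gene, between 0.634 and 2.96 TPM.

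Markers of immune cells were also mostly above 0 in that comparison. In Refed_8h against Refed_3h, 6 of 6 leukocyte markers, 11 of 11 macrophage markers, 12 of 12 T and NK cell markers, 4 of 4 B cell markers and 6 of 7 neutrophil markers were above 0 on the log2 scale, with medians of 0.59, 0.69, 0.35, 1.72 and 0.76. The 4 tested markers of dendritic-like antigen presenting cells were also above 0, with a median of 0.45 and none past the threshold. The median of all tested genes was 0.01. Those past the edgeR threshold were coro1a and lcp1 of the leukocyte list and marco and mpeg1.2 of the macrophage list. cd79a and cd37 of the B cell list and mpx of the neutrophil list passed as well. Over all tested genes 3.06% were called higher. The leukocyte markers summed to 150 to 271 TPM in Refed_8h, against 85.9 to 150 TPM in Refed_3h and 149 to 217 TPM in Fast. The macrophage markers summed to 172 to 395 TPM in Refed_8h, against 105 to 166 TPM in Refed_3h and 162 to 222 TPM in Fast fish, and in both lists Refed_8h 3 was the lowest fish of its group. No gene of these 2 lists was at 0 in any fish. The sums are in TPM, a scale on which the median gene was lower in Refed_3h than in Fast. In the fit to counts the medians in Refed_3h against Fast were -0.13 (leukocyte), -0.14 (macrophage), -0.24 (T and NK cell), -0.40 (B cell) and -0.70 (neutrophil). In Refed_8h against Fast they were 0.48, 0.69, 0.14, 1.45 and 0.07. Against Fast only 1 of these markers passed in edgeR, a neutrophil marker lower in Refed_3h, where 2.63% of all tested genes were called lower. In Refed_8h against Fast none passed, where 0.543% of all tested genes were called higher and 0.854% lower.

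The B cell markers were low, with a sum of 16.0 to 29.7 TPM in Refed_8h, against 2.07 to 14.2 TPM in Refed_3h and 4.74 to 18.2 TPM in Fast fish, and pax5 was at 0 in some fish. The T and NK cell markers summed to 59.4 to 93.8 TPM in Refed_8h, against 38.0 to 61.8 TPM in Refed_3h and 66.0 to 91.8 TPM in Fast. Skin epithelium markers summed to 14115 to 26206 TPM in Refed_8h and 14541 to 24677 TPM in Refed_3h, against 22783 to 27413 TPM in Fast. Erythrocyte markers summed to 1204 to 1993 TPM in Refed_8h, against 1127 to 5014 TPM in Refed_3h and 921 to 1567 TPM in Fast. Endothelium markers summed to 97.9 to 126 TPM in Refed_8h, against 73.1 to 88.0 TPM in Refed_3h and 114 to 126 TPM in Fast. In the fit to counts the medians in Refed_8h against Refed_3h were -1.03 (erythrocyte), -0.33 (muscle), -0.27 (skin) and -0.13 (endothelium). That of pigment cell markers was 0.30. The part of immune, blood or skin cells in the results above was not tested.

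**Figure D5:**
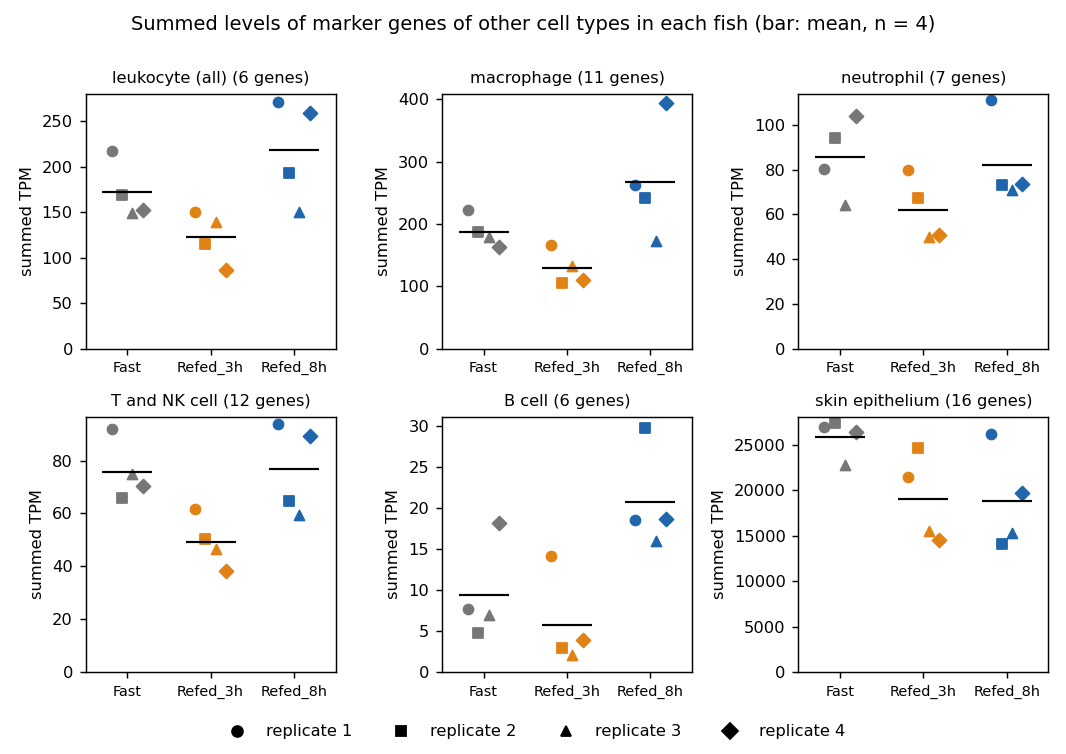
Summed TPM of marker genes of 6 other cell types (y axes from 0, linear) in each fish of Fast, Refed_3h and Refed_8h; marker shape gives the replicate number and the bar is the mean, n = 4. The macrophage sum reached 395 TPM in a Refed_8h fish, while no Refed_3h fish exceeded 166 TPM.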

How the data were processed

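Paired-end reads of poly(A) RNA from 12 fish were aligned by the authors to the genome build GRCz11 in CLC Genomics Workbench. Gene annotation release, use of strand and handling of reads with several matches were not given in the sources used here. A deposited table of 25281 genes holds the authors' counts per gene, whole numbers that are not normalized, and TPM that the authors scaled to 1000000 per library. The deposited RPKM were not used, nor were the columns of the authors' 3 comparisons (fold change, p-value and FDR). Every column of a fish was matched by name, all 75 gene IDs were in a table of gene names, and 66 carried the same symbol there.

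Tests used the counts in edgeR 4.0.16 (R 4.3.3): filterByExpr (16745 genes kept), TMM, 1 robust quasi-likelihood fit of the 3 groups, and Benjamini-Hochberg adjustment over all tested genes, a call being an adjusted p under 0.05. Standard errors are the log2 fold change over the square root of F. The biological coefficient of variation was 30.6%. As a check for repeated libraries, 66 pairs were compared, and chi-square per gene lay between 28.8 and 94.5. The fit was tested on simulated data before use.

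Counts over the members cover all 75 genes, of which 2 are not reported here by name or value. The members and lists were chosen with earlier results of these data known. Given with the value in every fish are the genes called, the 2 largest changes in each direction per comparison, the 2 most abundant of each role, and the 6 with a mean of at least 1 TPM and the widest range over fish in log2 CPM (prior count of 2). Fold changes are printed for calls and for part of the other changes of at least 2-fold or with an unadjusted p under 0.05. Names added after seeing values were ifih1, ifit10, ifit11, ifit12, irf2, irf3, irf4b, irf8, irf9, mhc1laa, mhc1zba, mxd, mhc2a, mhc2dab, rsad2, tap1 and the genes that split the fish with their neighbours. Alternatives were DESeq2 1.42.0, a fit of 2 groups, RLE size factors, all genes unfiltered, the replicate number as a block, limma 3.58.1 on log2(TPM + 1) and log2(TPM + 0.1) of genes with a mean of at least 0.5 TPM and with no such filter, a 2-fold threshold, and each library left out in turn.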

Additional observations from a re-analysis of the deposited data

Results flagged for a closer look

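In 8 of 90 groups of 4 fish in which a named gene was measured, 1 fish stood apart by Dixon's test, which chance alone passes in about 1 in 20 groups. Some of these genes were chosen for a wide range over fish or a large change, so that the count cannot be set against that rate. Refed_3h 3 had 708 TPM of mhc1uba, where the other Refed_3h fish had 21.6 to 41.4 TPM, and 10.4 TPM of mhc1zfa, where they had 0.871 to 1.45 TPM. Refed_3h 4 had 36.6 TPM of mhc2b, where the others had 0 to 0.134 TPM. The same fish had 0.896 TPM of ifit8, where the others had 0.173 to 0.204 TPM, and 12.1 TPM of trim25, below the 16.4 to 17.1 TPM of the others. Fast 3 had 5.14 TPM of mhc1lfa and 4.47 TPM of mhc1lla, where the other Fast fish had at most 0.0447 and 0 TPM. Refed_8h 3 had 34.0 TPM of irf2bp2b, below the 39.4 to 40.2 TPM of the other Refed_8h fish.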

How the results depend on the processing

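The count of genes called in Refed_3h against Fast was 1 and became 4 with DESeq2, 2 in the fit of only the 2 groups compared, 4 with limma on log2(TPM + 0.1), 3 with limma on log2(TPM + 1), 0 with limma without a filter on low values and 0 where a change of at least 2-fold was also asked. Over all tested genes the calls higher and lower were 381 and 440, and with DESeq2 799 and 898. In the fit of 2 groups they were 297 and 401, and at 2-fold or more 115 and 232. On the TPM scale, where the median gene was lower by 0.26 with log2(TPM + 1), the calls were all lower genes, and none was the gene called by edgeR. Over all tested genes limma called 75 higher and 1167 lower with log2(TPM + 1), and 76 and 1268 with log2(TPM + 0.1). Without the filter it called 45 and 653. Leaving out 1 fish gave 0 to 2, and over all tested genes 102 to 379 higher and 148 to 426 lower. In Refed_8h against Fast the count was 1 under all alternatives, and leaving out 1 fish gave 1 to 1. Over all tested genes the alternatives called 53 to 272 higher and 91 to 383 lower there. In Refed_8h against Refed_3h the count was 5 and became 17 with DESeq2, 3 without the filter on low counts and 3 at 2-fold or more, and leaving out 1 fish gave 3 to 15. Over all tested genes the calls higher and lower were 512 and 562, with DESeq2 877 and 899, and without the filter 378 and 434. At 2-fold or more they were 284 and 182, and leaving out 1 fish gave 228 to 560 and 231 to 608. The 15 without Refed_8h 3 shared 4 genes with the 5. Of the single gene results under alternatives, 1145 kept their side of the threshold, 43 came to pass and 29 ceased to pass, and none changed its sign against a call. The cause of these changes was not tested.

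With the replicate number as a block the counts were 2 in Refed_3h against Fast, 1 in Refed_8h against Fast and 6 in Refed_8h against Refed_3h, and dhx58 no longer passed in the last (adjusted p 0.0733). Over all tested genes this fit called 437 higher and 497 lower, 108 and 172, and 563 and 603 in the same comparisons. Fish of the same number did not deviate together in every pair: the correlation was -0.19 to 0.27 between Refed_3h and Fast, 0.04 to 0.27 between Refed_8h and Fast, and -0.04 to 0.13 between the refed groups, where a correlation over 0.1 in every pair was asked to take the fish as paired. It was over 0.1 in 2, 3 and 2 of the 4 pairs. Between Refed_8h and Fast 3 of the 4 fish of each group correlated best with their own number, a hint from the data and not from the design, and the numbers were not taken to pair the fish.

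Genes with under 10 counts in most fish, such as mhc1lfa and mhc1lla, and copies that are alike in sequence limit what levels of single genes show, and time of day was not separated from feeding. Sex, balanced between the groups by the study's methods, could not be entered in the fit, since that of each fish was not given.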
